A study of Mus musculus with 4 samples.

Results

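A set of 9 pericentral genes that depend on Wnt signalling was followed in liver: Glul, Oat, Slc1a2, Rhbg, Axin2, Lgr5, Tbx3, Rnf43 and Znrf3. They were chosen by gene symbol, and all 9 were found once among the 24138 rows of the authors' deposited expression table. The samples came from 4 male mice of the strain C57BL/6J, with an age of 18 weeks in the labels. All had received the FAT-MASH diet, which produces metabolic dysfunction-associated steatohepatitis, and RvD1, resolvin D1, a lipid mediator of the resolution of inflammation. Poly(A) RNA from whole liver was sequenced, and the estimated depth was 18.8 to 20.1 M fragments per library. The 4 livers form a single group and were numbered 1 to 4 after the labels. No livers without RvD1 or without the diet were analysed here, so the values describe levels and the spread between animals. An exact two-sided paired permutation test over 4 livers cannot go below p = 0.125, so genes were compared by whether their ranges over the livers overlapped.

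The liver lobule is zoned between the portal tracts, where blood enters, and the central vein. Endothelial cells of the central vein release Wnt ligands and R-spondin 3, which activate beta-catenin in the neighbouring hepatocytes. There beta-catenin with TCF factors maintains a program that includes glutamine synthetase, the last step by which the liver captures ammonia that escaped urea synthesis upstream. The same signal induces its own brakes, among them Axin2, Rnf43 and Znrf3. Whole-liver RNA mixes all zones and cell types, so fewer cells of a type and less RNA per cell cannot be told apart, and the position of a transcript in the lobule was not measured.

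All 9 genes had a mean of at least 1 FPKM (fragments per kilobase of transcript, scaled to the mapped fragments of the library), the level above which a gene was called expressed. The whole table held 10541 such genes. The 4 genes of nitrogen metabolism, Glul, Oat, Slc1a2 and Rhbg, were each lowest in liver 2. Of the 4 Wnt regulators and the transcription factor gene Tbx3, Rnf43 was also lowest in liver 2, Axin2 was high in liver 3, Lgr5 was high in liver 1, Tbx3 was higher in livers 2 and 3 than in livers 1 and 4, and Znrf3 varied little. The 9 genes therefore did not share a single order of the livers.

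Glul (XLOC_000466, chromosome 1, 153899926 to 153909723, plus strand) encodes glutamine synthetase, which joins ammonia to glutamate. It was listed in livers 1 to 4 at 275, 179, 211 and 248 FPKM. Liver 1 was highest and liver 2 lowest, with a ratio of 1.54 between them. The mean was 228 ± 42.3 FPKM (SD, n = 4), rank 388 among the expressed genes.

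Oat (XLOC_020368, chromosome 7, 132557475 to 132576398, minus strand) encodes ornithine aminotransferase, the mitochondrial enzyme that turns ornithine into glutamate semialdehyde. Its values were 95.1, 38.0, 80.6 and 67.7 FPKM in livers 1 to 4, with a mean of 70.4 ± 24.3 FPKM (SD, n = 4). Liver 2 stood at 0.468 of the mean of the other livers. The ratio of the highest to the lowest liver was 2.51 and fell to 1.41 without liver 2.

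Slc1a2 (XLOC_011562, chromosome 2, 102658683 to 102790784, plus strand) encodes a high-affinity glutamate transporter of the plasma membrane, through which pericentral hepatocytes take up glutamate. It was listed in livers 1 to 4 at 7.86, 1.81, 4.20 and 6.34 FPKM, with a mean of 5.05 ± 2.63 FPKM (SD, n = 4). Livers 1 and 4 were high, liver 3 was between, and liver 2 was lowest at 0.296 of the mean of the others. Its ratio of 4.33 between the highest and the lowest liver was the widest of the 9 genes, and it was 1.87 without liver 2.

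Rhbg (XLOC_013839, chromosome 3, 88242874 to 88254684, minus strand) encodes an ammonium transporter of the Rhesus family. Its values were 11.4, 4.08, 12.4 and 8.76 FPKM in livers 1 to 4, with a mean of 9.15 ± 3.71 FPKM (SD, n = 4). Livers 1 and 3 were high and liver 2 was lowest, at 0.377 of the mean of the others. The ratio of the highest to the lowest liver was 3.03, and 1.41 without liver 2. At the estimated depth the value of liver 2 corresponds to about 137 fragments, whose counting error alone is about 8.54%.

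**Figure D1:**
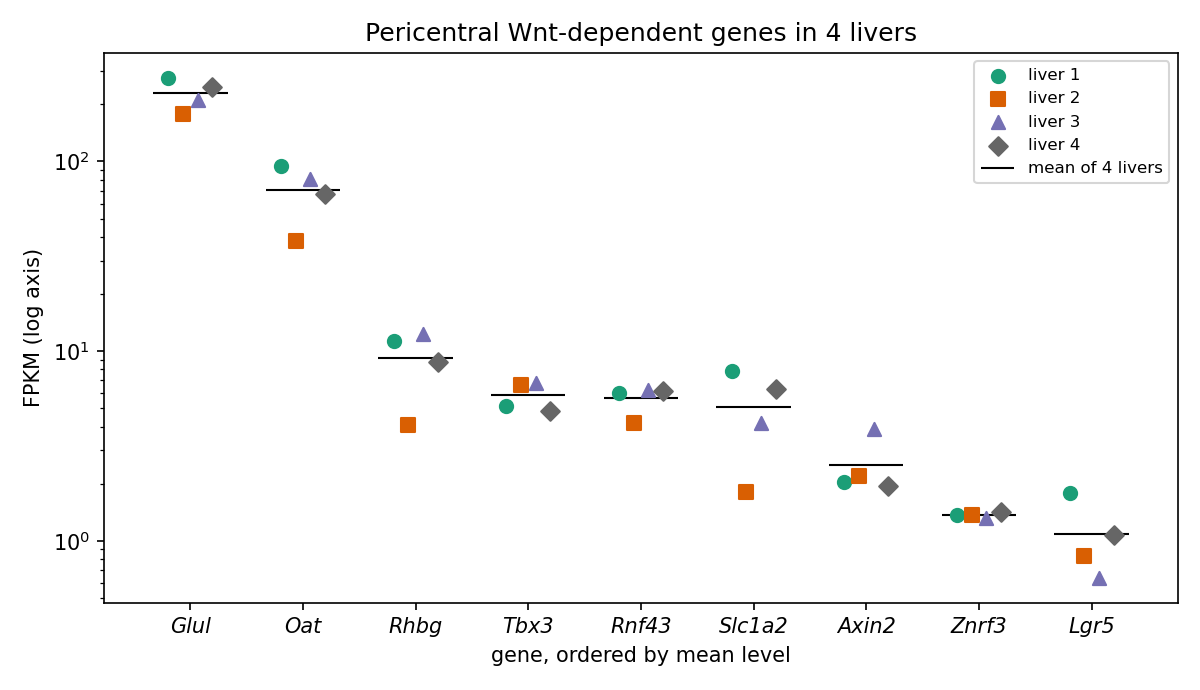
Level of each gene in FPKM (vertical log axis) in the 4 livers, ordered by mean; points are single livers and bars the mean of 4. Liver 2 (square) is the lowest point for Glul, Oat, Rhbg, Slc1a2 and Rnf43, and the Znrf3 points lie between 1.32 and 1.42 FPKM.

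Promoter sequence is shown for Glul and Oat, 2 enzyme genes that were both low in liver 2, and for Axin2, a general Wnt target that was not. RefSeq windows on GRCm38.p6, running from 250 bases before to 50 bases after a transcription start, were at hand for 5 of the 9 genes. Each sequence below is written 5′ to 3′ on the strand of its gene and stops before the span of the deposited table. The spans printed are chr1:153899679-153899925 on the plus strand for Glul, chr7:132576399-132576648 on the minus strand for Oat and chr11:108920099-108920348 on the plus strand for Axin2. The Axin2 start is that of the deposited table and lies inside the RefSeq span of the gene, which begins at 108917828. Its window therefore does not cover the start of that span. Capitals mark CCAAT or its reverse complement ATTGG, the letters of the CCAAT box of many promoters, a search chosen after the sequences were seen.
Glul: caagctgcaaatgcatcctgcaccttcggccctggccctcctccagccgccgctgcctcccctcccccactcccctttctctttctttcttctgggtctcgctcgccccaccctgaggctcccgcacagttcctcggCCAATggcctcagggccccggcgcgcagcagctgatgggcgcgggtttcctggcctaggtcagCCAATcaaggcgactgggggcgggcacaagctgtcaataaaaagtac
Oat: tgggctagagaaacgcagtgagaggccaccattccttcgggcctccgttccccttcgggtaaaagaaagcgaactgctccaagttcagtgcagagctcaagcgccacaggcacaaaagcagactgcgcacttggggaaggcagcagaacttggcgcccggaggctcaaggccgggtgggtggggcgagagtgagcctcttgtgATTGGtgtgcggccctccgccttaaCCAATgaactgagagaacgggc
Axin2: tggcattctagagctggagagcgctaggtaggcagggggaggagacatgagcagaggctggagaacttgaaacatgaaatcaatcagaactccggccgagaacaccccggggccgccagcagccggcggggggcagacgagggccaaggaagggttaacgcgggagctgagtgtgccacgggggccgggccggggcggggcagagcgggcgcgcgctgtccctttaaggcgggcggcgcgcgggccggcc
The Glul window holds CCAAT at 113 and 50 bases before the start, and the Oat window holds ATTGG at 47 and CCAAT at 22 bases before it. No capitals appear in the Axin2 stretch, and the 1 match of its window, ATTGG, lies 13 bases after the start. CCAAT on either strand was found in 37.4% of all 32851 windows. The printed stretches were rich in G and C, at 64.8% for Glul, 60% for Oat and 69.2% for Axin2, with 14, 14 and 24 CG pairs. The TCF/LEF letters CTTTGAT and CTTTGTT, searched on both strands, were in none of these 3 windows. A Slc1a2 window at a start inside the gene held ATCAAAG, the reverse complement of the first, 207 bases before that start. In 2 Rnf43 windows neither was found. These Slc1a2 and Rnf43 windows, of genes that were also lowest in liver 2, held no CCAAT on either strand. CTTTGAT was found in 3.73% of all windows, CTTTGTT in 5.85% and either in 9.33%, a window with both counted once. A match or its absence is a description of these letters.

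Axin2 (XLOC_003241, chromosome 11, 108920349 to 108950781, plus strand) encodes a scaffold of the complex that degrades beta-catenin and is a general readout of Wnt signalling. It was listed in livers 1 to 4 at 2.04, 2.21, 3.87 and 1.94 FPKM, with a mean of 2.52 ± 0.908 FPKM (SD, n = 4). Liver 3 was 1.99 times the lowest liver and stood apart from the other livers, which lay close together. Without liver 3 the ratio of the highest to the lowest liver was 1.14.

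Lgr5 (XLOC_002328, chromosome 10, 115450314 to 115587780, minus strand) encodes a receptor for R-spondins. Its values were 1.79, 0.835, 0.640 and 1.07 FPKM in livers 1 to 4, with a mean of 1.08 ± 0.505 FPKM (SD, n = 4). Liver 1 was highest and liver 3 lowest, with a ratio of 2.81 that was 1.67 without liver 1. The value of liver 3 corresponds to about 56 fragments, with a counting error of about 13.4%. Without liver 1 the mean of Lgr5 was below 1 FPKM, so 8 of the 9 genes then counted as expressed.

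Rnf43 (XLOC_003027, chromosome 11, 87663087 to 87735539, plus strand) and Znrf3 (XLOC_003385, chromosome 11, 5276329 to 5444847, minus strand) encode related membrane ubiquitin ligases that remove Frizzled receptors from the cell surface, and R-spondins bound to Lgr receptors block them. Rnf43 was listed in livers 1 to 4 at 6.02, 4.16, 6.24 and 6.13 FPKM, with a mean of 5.64 ± 0.987 FPKM (SD, n = 4). Livers 1, 3 and 4 differed by a ratio of 1.04, and liver 2 lay below them. Znrf3 was listed at 1.36, 1.37, 1.32 and 1.42 FPKM, with a mean of 1.37 ± 0.0417 FPKM (SD, n = 4). Its values correspond to about 157 to 167 fragments, and its coefficient of variation of 3.05% was below the counting error of about 7.98% for the lowest of them. Within a liver Rnf43 exceeded Znrf3 by 4.42, 3.04, 4.74 and 4.32 times in livers 1 to 4.

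Tbx3 (XLOC_016101, chromosome 5, 119670862 to 119684724, plus strand) encodes a T-box transcription factor that is induced by beta-catenin in liver. Its values were 5.14, 6.61, 6.81 and 4.84 FPKM in livers 1 to 4, with a mean of 5.85 ± 1.00 FPKM (SD, n = 4). Livers 2 and 3 were above livers 1 and 4, and the ratio of the highest to the lowest was 1.41. Tbx3 and Znrf3 were the members above their own mean in liver 2, Znrf3 by less than 0.01 on the log2(FPKM + 1) scale.

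Several of these spans are shared with other annotated transcripts, and the strand setting of the authors' counting is not given in the sources used here. In the deposited table Rnf43 has the same span as 1110028F11Rik, listed in livers 1 to 4 at 0.519, 0.284, 0.429 and 0.602 FPKM, and Lgr5 the same span as A930009A15Rik, listed at 0 in all. In GENCODE vM21, exons of Glul overlap Teddm2 on the opposite strand and Mir8114. Exons of Slc1a2, Axin2 and Tbx3 overlap Gm13872, Gm11670 and Tbx3os1 on the opposite strand, and those of Rhbg overlap Gm38392 on the same strand. Reads of such partners cannot be told apart from those of the named genes without strand. For Oat and Znrf3 no shared span or overlapping exon was found.

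By mean FPKM the order was Glul, Oat, Rhbg, Tbx3, Rnf43, Slc1a2, Axin2, Znrf3 and Lgr5. Glul exceeded Oat in 4 of 4 livers, by 2.62 to 4.70 times, and Oat exceeded Rhbg in 4 of 4 livers, by 6.52 to 9.30 times. The ranges of these pairs did not overlap, nor did those of Axin2 and Znrf3. The neighbours from Rhbg through Tbx3, Rnf43 and Slc1a2 to Axin2 had overlapping ranges and did not differ beyond their spread, and the same held for Znrf3 and Lgr5. Slc1a2, for example, exceeded Rnf43 in livers 1 and 4 and was below it in livers 2 and 3. Without liver 2 Slc1a2 and Tbx3 exchanged places and the other 7 genes kept theirs.

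The 9 genes were next set beside all expressed genes. Lowest of the 4 in liver 2 were 5 of 9 (Glul, Oat, Slc1a2, Rhbg and Rnf43), against 29.9% of all 10541 expressed genes. Highest in liver 1 were 4 of 9 (Glul, Oat, Slc1a2 and Lgr5), against 17.9% of all, and highest in liver 3 were 4 of 9 (Rhbg, Axin2, Tbx3 and Rnf43), against 26.8%. None of the 9 was highest in liver 2, where 22% of all expressed genes were, and Znrf3 alone was highest in liver 4, against 33.3%. Lgr5 and Znrf3 were lowest in liver 3, against 31.4% of all, Axin2 and Tbx3 were lowest in liver 4, against 18.1%, and none was lowest in liver 1, against 20.7%. Below their own mean in liver 2 were 7 of 9, against 54.9% of all. That pericentral genes were low in liver 2 was known from earlier results of these data, so the counts describe these members and are not independent evidence.

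Deviations were taken on the log2(FPKM + 1) scale from the mean of each gene. Near 1 FPKM this scale shrinks differences. The median deviation of the 9 genes was 0.29, -0.33, 0.14 and 0.03 in livers 1 to 4, and that of all expressed genes -0.01, -0.02, -0.01 and 0.04. For the 4 genes of nitrogen metabolism alone it was -0.85 in liver 2, with Glul at -0.33, Oat at -0.80, Rhbg at -0.91 and Slc1a2 at -0.98. For the 4 Wnt regulators and Tbx3 it was -0.10 in liver 2, with Rnf43 at -0.35, Lgr5 at -0.15, Axin2 at -0.10, Znrf3 at 0.00 and Tbx3 at 0.16. The deviations of a gene sum to 0, so a low value in 1 liver raises the others.

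**Figure D2:**
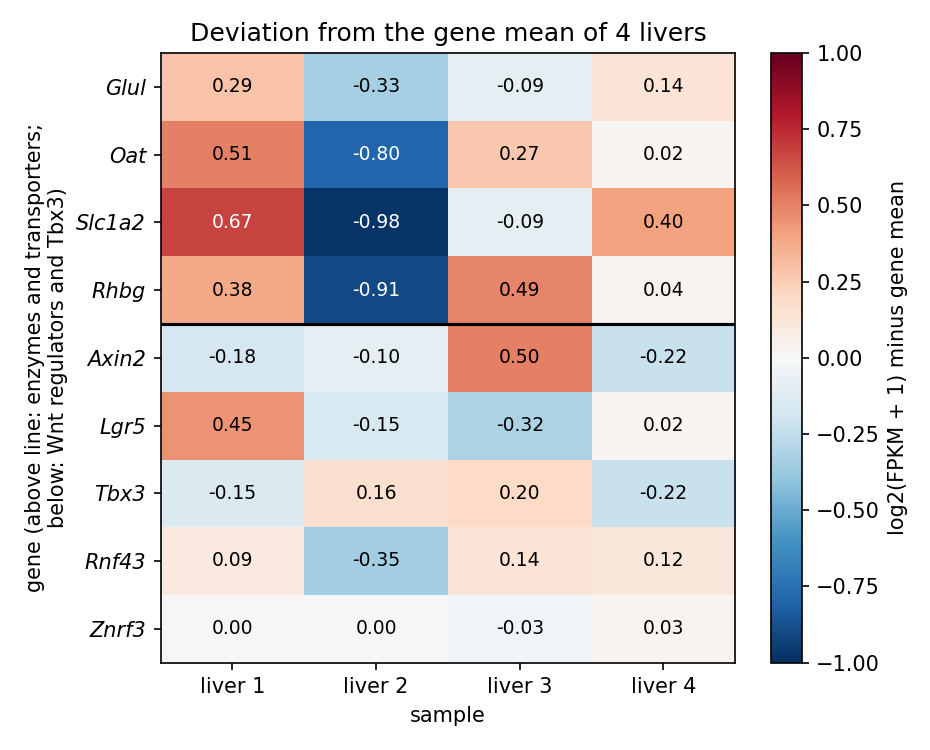
Deviation of each gene (rows) from its mean over 4 livers (columns), in log2(FPKM + 1); red is above and blue below the mean. Oat, Slc1a2 and Rhbg are at -0.80, -0.98 and -0.91 in liver 2, whereas Tbx3 is at 0.16 and Axin2 reaches 0.50 in liver 3.

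The profiles of the 9 genes were compared pairwise by the root mean square difference of their deviations over 4 livers. Of the 36 pairs, Oat and Rhbg were closest at 0.14, followed by Glul and Rnf43 at 0.15 and Glul and Lgr5 at 0.18. Axin2 and Tbx3, both highest in liver 3, differed by 0.20. Slc1a2 and Tbx3 were farthest apart at 0.78, and Slc1a2 and Axin2 next at 0.75. The measure is small for any pair of genes with little spread, as for Tbx3 and Znrf3 at 0.20. The ratio of Oat to Rhbg kept between 6.52 and 9.30 over the livers, while that of Oat to Slc1a2 ranged from 10.7 in liver 4 to 20.9 in liver 2.

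The wide spread of Glul, Oat, Slc1a2 and Rhbg between animals came largely with liver 2. The median SD of log2(FPKM + 1) was 0.33 over the 9 genes, 0.60 over the 4 genes of nitrogen metabolism and 0.23 over the 4 Wnt regulators and Tbx3, against 0.16 over all expressed genes. Without liver 2 it was 0.24 over the 4 genes of nitrogen metabolism, 0.22 over the regulators and Tbx3 and 0.15 over all, so the difference between both sets of genes rested on that liver. Among expressed genes of the same decile of mean level, the SD of Slc1a2 was at percentile 99.7, Rhbg at 99.1, Oat at 98.3 and Glul at 87.3. Axin2 was at 92.5, Lgr5 at 91.5, Rnf43 at 79.6 and Tbx3 at 73.3, while Znrf3 was at 0.190. Without liver 2 Slc1a2 was at percentile 94.7, Oat at 83.1, Rhbg at 79.1, Glul at 64.6 and Rnf43 at 1.99, whereas Axin2 was at 95.3 and Lgr5 at 94.0. These in turn rested on other livers, since Axin2 was at 12.0 without liver 3 and Lgr5 at 49.4 without liver 1. A ratio of at least 1.5 between the highest and the lowest liver was found for 6 of 9 genes (all but Tbx3, Rnf43 and Znrf3), against 28.4% of all. Rnf43 was just below that bound at 1.498 and Glul just above it at 1.54. Without liver 2 the count was 3 of 9, against 19% of all.

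**Figure D3:**
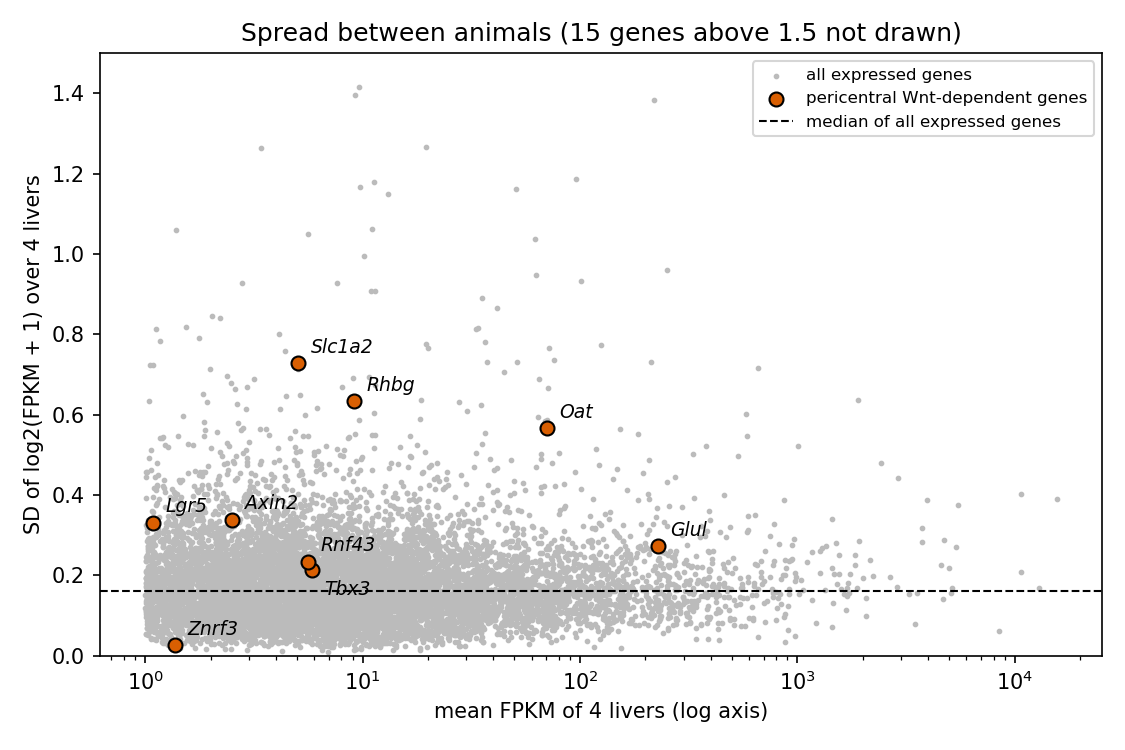
SD of log2(FPKM + 1) over 4 livers (vertical) against mean FPKM (horizontal log axis) for all expressed genes (grey) and the 9 pericentral genes (orange, named); the dashed line is the median of all, 0.16, and 15 genes above 1.5 are not drawn. Slc1a2, Rhbg and Oat lie at 0.73, 0.63 and 0.57, and Znrf3 at 0.03.

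Among other Wnt feedback and target genes, 6 of 10 were expressed, all 6 below their mean in liver 2 (54.9% of all expressed genes) and 4 of them lowest there (29.9% of all), with a median deviation of -0.22. Notum, which encodes a secreted enzyme that inactivates Wnt ligands, was listed in livers 1 to 4 at 13.6, 9.95, 13.1 and 11.2 FPKM. Tnfrsf19 was listed at 4.09, 2.48, 3.36 and 3.87 FPKM, and Sp5, a transcription factor gene induced by Wnt, at 1.12, 0.670, 1.99 and 1.30 FPKM. Sp5 and Axin2 were both highest in liver 3, as was Nkd1, an inhibitor of Dishevelled just below the expressed level, at 0.887, 0.907, 1.26 and 0.930 FPKM. Ccnd1, which encodes cyclin D1, had 19.5 ± 1.78 FPKM (SD, n = 4). Myc stood at 14.3 FPKM in liver 4 and at 2.28, 3.54 and 2.33 FPKM in livers 1 to 3, so it was below its mean in liver 2 because of liver 4 and was highest in liver 2 among the other livers.

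Ligands that act on pericentral hepatocytes were low in whole liver. Of 21 genes of Wnt ligands and their secretion 4 were expressed, the ligands Wnt4 and Wnt5b and the secretion genes Wls and Porcn, and 5 were listed at 0 in all livers. All 4 were above their mean in liver 2 (45.1% of all expressed genes), with a median deviation of 0.08. Rspo3, the R-spondin of the central vein, was listed in livers 1 to 4 at 1.91, 2.57, 1.86 and 2.27 FPKM, highest in liver 2, whereas Rnf43 and Glul were lowest there. Wnt2 was between 0.499 FPKM in liver 1 and 0.712 FPKM in liver 2, and Wnt9b was listed at 0.299, 0.198, 0.418 and 0.333 FPKM. At such levels single values rest on few fragments. Rspo2 and Rspo4 were listed at 0 in all livers.

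Of 17 receptors and coreceptors 10 were expressed, with a median deviation of -0.04 in liver 2 and 1 of 10 lowest there (29.9% of all). Lgr4, the other R-spondin receptor of liver, had 10.5 ± 1.07 FPKM (SD, n = 4) and exceeded Lgr5 in every liver. The coreceptors Lrp5 and Lrp6 had 14.5 ± 1.44 and 8.67 ± 1.08 FPKM (each SD, n = 4). Of 11 secreted inhibitors 2 were expressed, Frzb at 2.36 ± 0.662 FPKM and Dkk3 at 2.63 ± 0.256 FPKM (each SD, n = 4). Of 16 genes of the destruction complex, Dishevelled and nuclear effectors 15 were expressed, with a median SD of 0.14, below that of all expressed genes. In liver 2 their median deviation was -0.09, with 11 of 15 below their mean (54.9% of all) and 6 of 15 lowest (29.9% of all). Ctnnb1, which encodes beta-catenin itself, ranged from 58.7 to 62.5 FPKM. Axin1 was 5.67 FPKM in liver 3, where Axin2 was also highest, and 4.17 to 4.41 FPKM in the other livers. Bcl9l, a coactivator of beta-catenin, was listed in livers 1 to 4 at 7.20, 6.41, 12.9 and 8.38 FPKM.

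Of 16 other pericentral hepatocyte genes 15 were in the table and 14 were expressed, 11 of 14 below their mean in liver 2 (54.9% of all) and 5 of 14 lowest there, near the 29.9% of all expressed genes, with a median deviation of -0.10 and a median SD of 0.21. The 5 were Cyp2e1, Cyp1a2, Cyp2a5, Gulo and Lect2. Lect2, a secreted protein gene induced by beta-catenin, was 110 FPKM in liver 2 and 163 to 168 FPKM in the other livers. Gulo, which encodes the last enzyme of vitamin C synthesis, was 225 FPKM in liver 2 and 293 to 307 FPKM in the others. Cyp1a2 was listed in livers 1 to 4 at 127, 96.3, 158 and 130 FPKM. Above their mean in liver 2 were Cyp2c29, highest there at 176 FPKM against 146 to 166 FPKM, Cyp7a1, the rate-limiting enzyme of bile acid synthesis, with a deviation of 0.25, and Slc13a3 with 0.06. Cldn2, a tight junction gene, had 30.5 ± 2.64 FPKM (SD, n = 4).

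The 15 periportal genes, which Wnt signalling holds low near the central vein, were all expressed. In liver 2 10 of 15 were below their mean (54.9% of all) and 6 of 15 were lowest (29.9% of all), with a median deviation of -0.14. In liver 3 their median was 0.20, with 10 of 15 above their mean (47% of all) and 9 of 15 highest there (26.8% of all). Gls2, the liver glutaminase that opposes Glul, was listed in livers 1 to 4 at 143, 140, 177 and 160 FPKM. Slc38a3, the glutamine transporter of hepatocytes, was listed at 990.3, 884, 1203 and 1081 FPKM, also lowest in liver 2. Of the 21 genes of glutamine, glutamate and ornithine handling 15 were expressed, with a median deviation of -0.02 in liver 2 and 5 of 15 lowest there, near the 29.9% of all. The other glutamate transporters Slc1a1 and Slc1a3 were at or below 0.0420 FPKM in every liver, and Rhcg, the relative of Rhbg, was listed at 0.

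**Figure D4:**
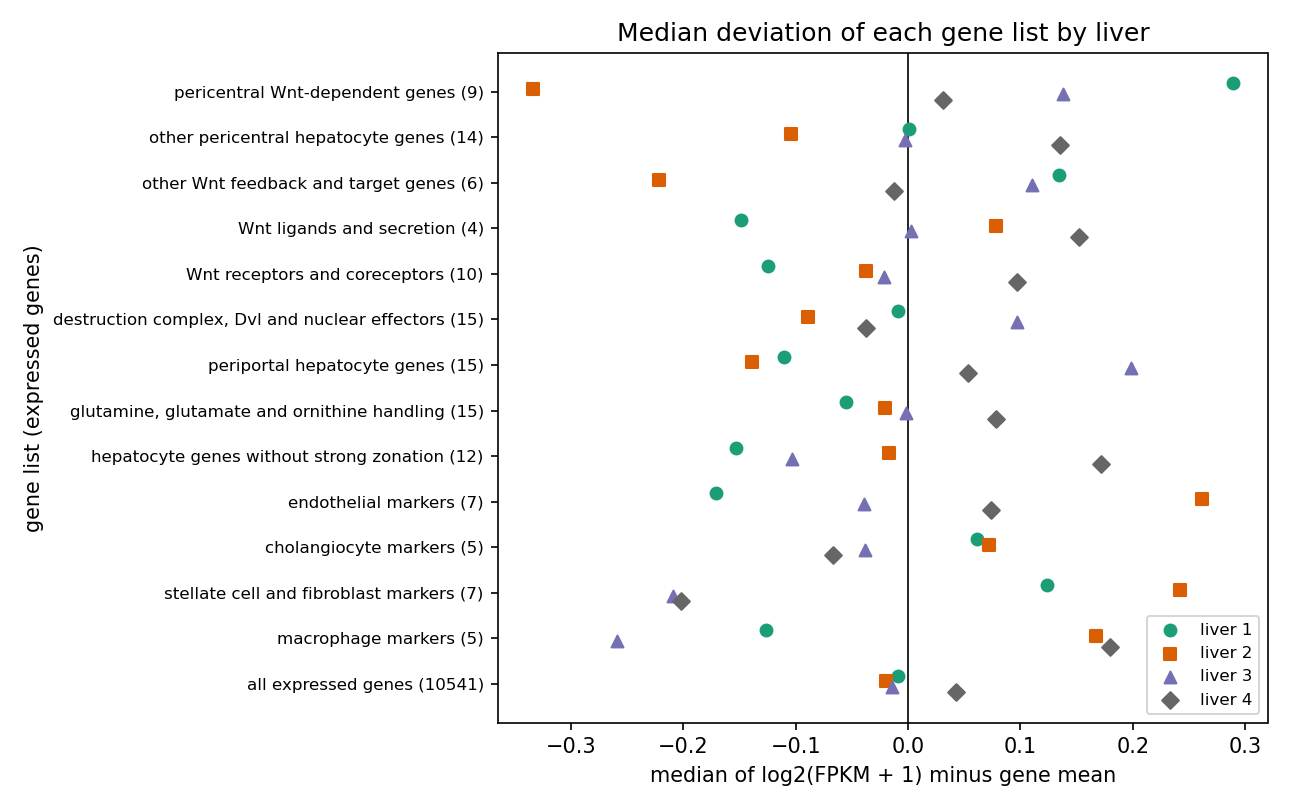
Median deviation from the gene means, in log2(FPKM + 1) (horizontal), of each gene list with at least 4 expressed genes except the acute phase genes (rows, number in brackets) in the 4 livers. For the pericentral Wnt-dependent genes liver 2 lies at -0.33, for the other Wnt feedback and target genes at -0.22, and for the endothelial markers at 0.26.

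Marker lists of other cells were summed in each liver beside these values. Hepatocyte genes without strong zonation were all expressed, 12 of 12, with a median deviation of -0.02 in liver 2, where 1 of 12 was lowest (29.9% of all), and of -0.15 in liver 1, where 7 of 12 were lowest (20.7% of all). Their summed level, to which Ttr, Rbp4 and Ahsg added most, was 19808 FPKM in liver 2 against 20003 to 24056 FPKM in the others. Endothelial markers (7 of 10 expressed) summed to 82.0 FPKM in liver 2 against 64.9 to 76.4 FPKM, and stellate cell and fibroblast markers (7 of 7) to 298 FPKM against 194 to 237 FPKM. Macrophage markers (5 of 6) summed to 72.0 FPKM against 52.7 to 73.0 FPKM, cholangiocyte markers (5 of 6) to 205 FPKM against 192 to 233 FPKM, and lymphocyte markers (3 of 6) to 7.39 FPKM against 4.96 to 6.19 FPKM. The cholangiocyte sum was mostly Spp1, and the stellate sum mostly Dcn. Above their mean in liver 2 were 6 of 7 endothelial, 6 of 7 stellate, 5 of 5 macrophage, 4 of 5 cholangiocyte and 2 of 3 lymphocyte markers, against 45.1% of all expressed genes. The median deviations there were 0.26, 0.24, 0.17, 0.07 and 0.29. None of these markers was listed at 0 in all livers. A set of 9 acute phase genes, known from earlier results to be high in liver 2, summed to 15624 FPKM there against 5035 to 7281 FPKM. Their median deviation in liver 2 was 1.30, and 9 of 9 were highest there (22% of all). The part of these in the low values of Glul, Oat, Slc1a2 and Rhbg was not tested. After each library was scaled to the hepatocyte genes, the median deviation of the 9 genes in liver 2 was -0.34 and the same 5 genes were lowest there.

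For each of the 6 genes with a ratio of at least 1.5, the 3 expressed genes outside the set with the smallest root mean square difference of deviations over the 4 livers were listed. Nearest to Glul were Mtg1 at 0.02, 1500017E21Rik at 0.02 and Tsfm at 0.03. Nearest to Axin2 were Cyp4f17 at 0.02, Bak1 at 0.03 and Mypop at 0.04, all 3 highest in liver 3. Nearest to Lgr5 were Fam107b at 0.04, Ggct at 0.06 and Trib3 at 0.06. The wide profiles of the other 3 genes had less close neighbours. They were Nthl1 (0.12), Lhpp (0.14) and Cgref1 (0.14) for Oat, and Lhpp (0.10), Ces2c (0.13) and Ppp1r3c (0.14) for Rhbg. For Slc1a2 they were Cgref1 (0.18), Grtp1 (0.25) and 1110020A21Rik (0.28). Lhpp, listed in livers 1 to 4 at 13.4, 6.07, 14.7 and 10.9 FPKM, was thus near both Oat and Rhbg, and Cgref1, at 8.08, 2.71, 5.51 and 6.21 FPKM, near both Oat and Slc1a2. With 4 livers and 10541 genes to choose from, close matches are a description of these libraries.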

How the data were processed

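Whole-liver poly(A) RNA of 4 mice of a single group was sequenced. The submitters' processing notes name FastQC 0.10.1, Trim Galore 0.6.3, cutadapt, STAR 2.7.6a and Cufflinks 2.2.1 and the build mm10, without roles or settings. The authors' header states no unit. The deposited values were read as FPKM, because they are not whole numbers and the identifiers are of the kind that Cufflinks writes. Columns were matched through the sample descriptions, with 0 left unmatched. The labels number separate livers and give no batch, so the spread between them may be partly technical.

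Coordinates are those of the deposited table with 1 added to each start, since the start then equalled that of RefSeq on GRCm38.p6 for 52.0% of 22562 symbols, against 3.00% as deposited. Values were analysed as log2(FPKM + 1) in Python 3.11.15 with pandas 2.3.3, on genes whose mean reached 1 FPKM, with figures drawn in matplotlib 3.10.9. The depth was estimated from the value of 1 fragment in genes with a single GENCODE vM21 transcript longer than 800 bases, less 200 bases, and is approximate. Fragment numbers use the longest coding transcript and cover counting error only. The calculations were tested on simulated data.

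The members and the 16 other gene lists (193 of 195 symbols of all lists found) were chosen with earlier results of these data known. Named genes are the 9 members, genes of the lists, and the 3 expressed genes nearest in profile to each member with a ratio of at least 1.5. No test between groups was possible. Alternatives were 3 scalings, other pseudocounts, other minimum levels, the mean over genes and leaving out each liver. Sequences of promoters are from RefSeq, GRCm38.p6.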

Additional observations from a re-analysis of the deposited data

Results flagged for a closer look

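Of 54 genes whose values were examined, 10 had 1 liver that stood apart by Dixon's gap test, in which the gap to the nearest other liver is divided by the whole range. The 54 do not cover all genes of the lists. Further listed genes had a liver apart as well, among them Ahr, G6pc, Saa1 and Lcn2. Chance sets about 1 in 20 groups of 4 apart in this way, and 5.64% of all expressed genes met the same bound. Among the 9 pericentral genes those with a liver apart were Rnf43, lowest in liver 2 at 4.163 FPKM, and Axin2, highest in liver 3 at 3.869 FPKM. Lect2 (109.7 FPKM) and Gulo (225 FPKM) were lowest in liver 2 as well. Highest in liver 3 were Axin1 (5.674 FPKM), Nkd1 (1.264 FPKM) and the neighbours of Axin2 in profile, Cyp4f17 (7.87 FPKM) and Bak1 (15.65 FPKM), the last 2 having been chosen for their likeness to it. Liver 4 stood apart for Myc, highest there at 14.28 FPKM, and for Slc13a3, lowest there at 4.865 FPKM.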

How the results depend on the processing

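Lowest in liver 2 were 5 of the 9 genes under all 3 scalings. A minimum mean of 0.1 FPKM kept the same 9 genes, and with 5 FPKM 5 of the remaining 6 were lowest there. When liver 1, 3 or 4 was left out the count was 5 to 6. Leaving out another liver is no check of this count, since a gene lowest in liver 2 stays lowest there. The share of all expressed genes in these settings was not computed. The median deviation of the expressed members in liver 2 was -0.33 as deposited and below 0 under every alternative run. It went from -0.57 with a minimum mean of 5 FPKM to -0.21 with a pseudocount of 5. The median SD of log2 values was 0.33, and 0.44 with a pseudocount of 0.1, 0.17 with a pseudocount of 5 and 0.42 with a minimum mean of 5 FPKM. When each liver was left out in turn it ranged from 0.24 to 0.37, lowest without liver 2. For the 4 genes of nitrogen metabolism alone it was 0.24 without liver 2 and 0.63 to 0.73 without another, an alternative chosen after seeing the data. The number of genes with a highest-to-lowest ratio of at least 1.5 was 3 to 6 when a liver was left out, with 16.4% to 22.9% of all expressed genes passing in the same settings. It was 8 under scaling to equal sums (29.1% of all) or to hepatocyte genes (36.5% of all), where Tbx3 and Rnf43 passed the bound. Znrf3 changed its highest liver under each scaling, its ratio staying between 1.04 and 1.20. It was highest in liver 2 under scaling to equal sums or by the median ratio over expressed genes. Under scaling to hepatocyte genes it was highest in liver 1. That none of the 9 genes was highest in liver 2 therefore holds for the deposited values but not under every scaling. The livers could not be paired with those of another group, because the 4 livers form 1 group. Genes were compared within livers by counts. Of the 9 genes, depth limits Lgr5 most, then Rhbg, Axin2 and Znrf3, by the counting error at the lowest liver of 13.4%, 8.54%, 8.19% and 7.98%.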
